A study of Mus musculus with 20 samples.

Results

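The 10 genes described here are markers of Kupffer cells and other macrophages: Clec4f, Vsig4, Marco, Cd163, Cd5l, C1qa, C1qb, C1qc, Csf1r and Adgre1. They were chosen by name, as known markers, but with earlier results of these data known. Every probe set whose single gene symbol was one of them was taken, which gave 15 of the 45101 probe sets and 10 of the 18193 named genes on the array. Male C57BL/6J mice kept under specific-pathogen-free conditions were exposed to 137Cs gamma rays for more than a year in 2 separate experiments, and their liver RNA was hybridised to 20 Affymetrix arrays. In experiment 2, mice were exposed for 401 days at 0.05 (low), 1.00 (medium) or 20.0 (high) mGy per day, to cumulative doses of 20, 401 and 8015 mGy. In experiment 1, exposure lasted 485 days at 0.042 (low), 0.858 (medium) or 16.6 (high) mGy per day, to cumulative doses of 20.6, 416 and 8030 mGy. Each irradiated group had 3 mice on 1 array each. Unirradiated controls were 1 array of RNA pooled from 6 mice in experiment 2 and 1 array pooled from 3 mice in experiment 1, so the spread between control mice was not measured. Mice of experiment 1 were 8 weeks old when exposure began, and the livers of both experiments were taken as soon as it ended. The comparisons ask whether liver gene expression differed with dose-rate, and here whether the transcripts of the liver macrophages did.

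Kupffer cells are the resident macrophages of the liver. They sit in the sinusoids, where portal blood slows down, and remove bacteria, immune complexes, cell debris and aged red cells with an array of surface receptors. Clec4f, a C-type lectin, marks Kupffer cells in mice. Vsig4 is a receptor for complement fragments on opsonised particles, Marco a scavenger receptor for bacteria and particles, and Cd163 the receptor that takes up haptoglobin-haemoglobin complexes. Cd5l is a secreted protein of tissue macrophages that protects them from apoptosis, and the products of C1qa, C1qb and C1qc are the chains of C1q, which starts the classical complement pathway. Csf1r is the receptor through which CSF1 and IL34 keep macrophages alive, and Adgre1 encodes the surface antigen F4/80. Liver tissue holds these cells among a large majority of hepatocytes, and in whole liver RNA fewer macrophages and less RNA per macrophage cannot be told apart.

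All values are signal intensities that the authors had scaled to a common mean of 500.0 on each array, and the array medians ran from 81.3 to 104.8. All 15 probe sets passed a filter on low signal, which removed the dimmer part of the array up to its median probe set, and so all 10 genes were among the 11216 tested. After that filter, which favours such probe sets, 13 of the 15 lay above the array median on all 20 arrays. Their level does not show which cells the signals came from. The exceptions were the 2 probe sets of Marco, of which 1449498_at lay under the array median on 2 arrays and 1458297_s_at on 6. One probe set stood for each gene in the tests, and the remaining 5, of Marco, C1qb and Csf1r, are described with the comparison of the experiments. Signals of different probe sets cannot be compared with each other, since each binds its target to its own extent. One mouse stood apart in some of the neutrophil genes: in low mouse 1 of experiment 1 the 5 genes tested summed to a signal of 32103. Lcn2, an iron-binding protein of neutrophils and of the liver's acute phase response, made up 28487 of it (named after its values were seen). S100a8 (2089) and S100a9 (1096) were also highest there. Ngp (186) was highest there too, but near the 173 in low mouse 3 of experiment 1. Csf3r (245) lay below the 258 in medium mouse 2 of experiment 1. In low mouse 3 of experiment 1 the sum was 3725, although Csf3r had its lowest signal there (12.7), and on the other 18 arrays the sum lay between 651 and 2679. Medians of the 10 genes against low mice are given below without low mouse 1 too.

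Regulatory sequence was looked at because most of the 10 genes varied together from mouse to mouse, as described further on. C1qb, C1qc and C1qa are neighbours on mouse chromosome 4, within chr4:136880126-136898844 (GRCm38.p6), a stretch of 18.7 kb. The RefSeq promoter table used here held windows for 7 of the 10 genes, the 250 bases before the annotated start, and not for C1qa, Csf1r and Adgre1. These were searched on both strands for the core of the PU.1 site (AGGAAGT), the site of the transcription factor that macrophages depend on, for a MAF element (TGCTGAC) and for a nuclear receptor element (AGGTCA). The PU.1 core was in 2 of the 7 windows, C1qb and C1qc, and in 7.69% of the 32851 RefSeq windows of the same length. The nuclear receptor element was in C1qc and Clec4f and in 14.0% of all windows, and the MAF element in 0 of the 7 and in 3.81% of all. The 3 windows with a match are shown, with that of Cd5l, the gene that followed the mean of the 10 most closely across mice. They are written 5′ to 3′ toward the start site, with matches in capitals, and a match is a description of letters, not evidence of a bound site. The match of C1qb begins 53 bases before the start, and those of C1qc begin 195 bases (PU.1 core) and 174 bases (nuclear receptor element) before it. In Clec4f the match begins 22 bases before the start, and all 4 matches are on the opposite strand. The windows are chr4:136886201-136886450 (minus strand) for C1qb, chr4:136892915-136893164 (minus strand) for C1qc, chr6:83656117-83656366 (minus strand) for Clec4f and chr3:87357631-87357880 (plus strand) for Cd5l.
C1qb: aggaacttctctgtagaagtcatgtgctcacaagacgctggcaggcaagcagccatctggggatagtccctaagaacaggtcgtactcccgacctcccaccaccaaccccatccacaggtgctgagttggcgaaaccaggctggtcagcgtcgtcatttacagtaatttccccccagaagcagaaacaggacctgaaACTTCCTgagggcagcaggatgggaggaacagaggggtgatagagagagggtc
C1qc: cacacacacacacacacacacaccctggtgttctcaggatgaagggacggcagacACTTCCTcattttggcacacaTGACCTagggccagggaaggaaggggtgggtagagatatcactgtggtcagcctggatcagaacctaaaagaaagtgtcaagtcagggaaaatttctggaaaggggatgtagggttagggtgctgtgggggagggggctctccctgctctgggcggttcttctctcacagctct
Clec4f: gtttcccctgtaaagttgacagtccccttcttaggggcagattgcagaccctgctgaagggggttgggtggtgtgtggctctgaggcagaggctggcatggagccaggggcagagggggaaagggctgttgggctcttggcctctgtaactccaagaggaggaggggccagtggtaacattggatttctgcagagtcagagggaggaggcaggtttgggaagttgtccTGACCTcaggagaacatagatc
Cd5l: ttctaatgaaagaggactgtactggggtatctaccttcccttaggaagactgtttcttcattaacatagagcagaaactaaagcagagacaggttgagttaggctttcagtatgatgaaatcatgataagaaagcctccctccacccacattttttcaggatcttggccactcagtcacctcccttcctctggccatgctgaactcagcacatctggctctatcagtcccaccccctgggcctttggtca

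The surface receptors that mark or arm Kupffer cells showed no difference with dose-rate that passed the test. Clec4f had signals of 3150.3 in the control pool of experiment 2, 2749.5, 3273 and 2728 in the low, 2902, 3236 and 2132 in the medium and 3158, 3134 and 1838 in the high mice. In experiment 1 it had 2522 in the control pool, 2881, 2656 and 2524 in the low, 2044, 1917 and 2716 in the medium and 2485, 2424 and 2339.5 in the high mice. Levels overlapped in experiment 2, where the lowest of all 20 arrays was a high mouse, and in experiment 1 the 3 high mice lay below the 3 low mice and just below the pool. Vsig4 had signals of 2984 in the control pool of experiment 2, 3307, 3238 and 3010.5 in the low, 3093, 2911 and 2304 in the medium and 3873, 3750.5 and 2721 in the high mice. Experiment 1 gave 2934 in the control pool, 4009, 3315 and 4425 in the low, 2857, 3039 and 4797 in the medium and 3083, 4050.3 and 4425 in the high mice. All 6 low mice and 5 of 6 high mice lay above the pool of their experiment, and the ranges of the 3 dose-rates overlapped in both experiments. A linear model over the 20 arrays took dose level and experiment into account, and in it Vsig4 at the high dose-rate differed from the control pools by 0.28 ± 0.18 (log2 difference ± SE, limma adjusted p = 0.78), with a 95% interval from -0.09 to 0.66. The difference of Clec4f was -0.16 ± 0.18 (adjusted p = 0.865, interval -0.53 to 0.21).

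Marco and Cd163 were the most variable of the receptors. Marco had signals of 461 in the control pool of experiment 2, 272, 329.7 and 794 in the low, 506, 129 and 51.3 in the medium and 206, 329 and 94.7 in the high mice. Its signals in experiment 1 were 222 in the control pool, 441, 316 and 78.5 in the low, 908, 218 and 393 in the medium and 412, 346 and 101 in the high mice. Mice of 1 group differed by severalfold, and the ranges of the 3 dose-rates overlapped in both experiments. Cd163 had signals of 677 in the control pool of experiment 2, 541, 737 and 448 in the low, 499, 557 and 232 in the medium and 494, 716 and 340.3 in the high mice. In experiment 1 they were 662 in the control pool, 566, 530.2 and 242 in the low, 458, 400.3 and 851 in the medium and 352, 592 and 310.2 in the high mice. Both pools were near the top of the range, and 5 of the 6 mice at each dose-rate lay below the pool of their experiment. Against control, Cd163 differed by -0.46 ± 0.38 at the low, -0.52 ± 0.38 at the medium and -0.58 ± 0.38 at the high dose-rate (log2 difference ± SE, limma adjusted p = 1, 0.892 and 0.791). These 3 values share the same 2 pools and are not separate observations. For Marco the difference at the high dose-rate was -0.56 ± 0.80, with an interval from -2.24 to 1.11 that leaves room for a change of several fold either way.

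On their chosen probe sets, Cd5l and the C1q chains, the secreted proteins, each had a lower mean in medium than in low mice in both experiments. None of these differences passed the test. Cd5l had signals of 4943 in the control pool of experiment 2, 5027, 5902 and 5903 in the low, 5576, 4598 and 3670.5 in the medium and 5966, 6272 and 3752 in the high mice. Experiment 1 gave 4891 in the control pool, 6936, 4821 and 6780.1 in the low, 3764, 3709 and 5909 in the medium and 4303, 5399 and 6078 in the high mice. All 6 medium mice lay below the mean of the low mice of their own experiment, although the ranges overlapped. C1qa had signals of 2435 in the control pool of experiment 2, 2553, 2364 and 2654 in the low, 2962, 2221 and 1780 in the medium and 2894, 3241 and 1873 in the high mice. In experiment 1 C1qa had 1972 in the control pool, 3326, 2226 and 3374 in the low, 1985, 1579 and 2443 in the medium and 2347, 2136 and 2204 in the high mice. In experiment 1, 2 of the 3 low mice stood above every other array of that experiment, and in experiment 2 the low mice lay within the range of the medium and of the high mice. C1qb had signals of 2639 in the control pool of experiment 2, 2251, 2361 and 2808 in the low, 2846, 2432 and 1907 in the medium and 3825, 3145 and 2172 in the high mice. For experiment 1 the signals were 2461 in the control pool, 3630.3, 2163 and 3810.2 in the low, 2096, 1620.4 and 2493 in the medium and 2194, 2523 and 2842 in the high mice. The same 2 low mice of experiment 1 were again the highest there. C1qc had signals of 2064 in the control pool of experiment 2, 1903, 2195 and 2118 in the low, 2155, 1849 and 1458 in the medium and 2198, 2711 and 1521 in the high mice. In experiment 1 C1qc had 1879.6 in the control pool, 2786, 1922 and 3272 in the low, 2032, 1491 and 2207 in the medium and 2208, 1895 and 2229 in the high mice. The lowest C1qc signals of both experiments were in medium mice.

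The receptors of the macrophage lineage had the smallest spread of the 10 on their chosen probe sets. Csf1r had signals of 7533 in the control pool of experiment 2, 6181, 8043 and 7879 in the low, 7709.6, 7885 and 5994 in the medium and 7574, 7029 and 5889.8 in the high mice. Experiment 1 gave 5685 in the control pool, 7741, 5961 and 7709.7 in the low, 6024, 5980.3 and 8209.5 in the medium and 6350.1, 6950.2 and 7344 in the high mice. The pool of experiment 1 was the lowest array for Csf1r, and apart from it the arrays lay within a narrow band at every dose-rate. Adgre1 had signals of 1072 in the control pool of experiment 2, 887, 977 and 1235 in the low, 1132, 936 and 907 in the medium and 1138, 1121 and 730.5 in the high mice. In experiment 1 the signals were 808 in the control pool, 1127, 916 and 1166 in the low, 975, 829 and 1169.6 in the medium and 869, 882 and 1111 in the high mice. The pool of experiment 1 was again below every mouse of its experiment, whereas the pool of experiment 2 lay inside the range of its mice. At the high dose-rate, Csf1r differed from control by 0.06 ± 0.15 and Adgre1 by 0.05 ± 0.18 (log2 difference ± SE, limma adjusted p = 0.951 and 0.973). The interval for Csf1r, from -0.25 to 0.37, is the narrowest of the 10.

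**Figure D1:**
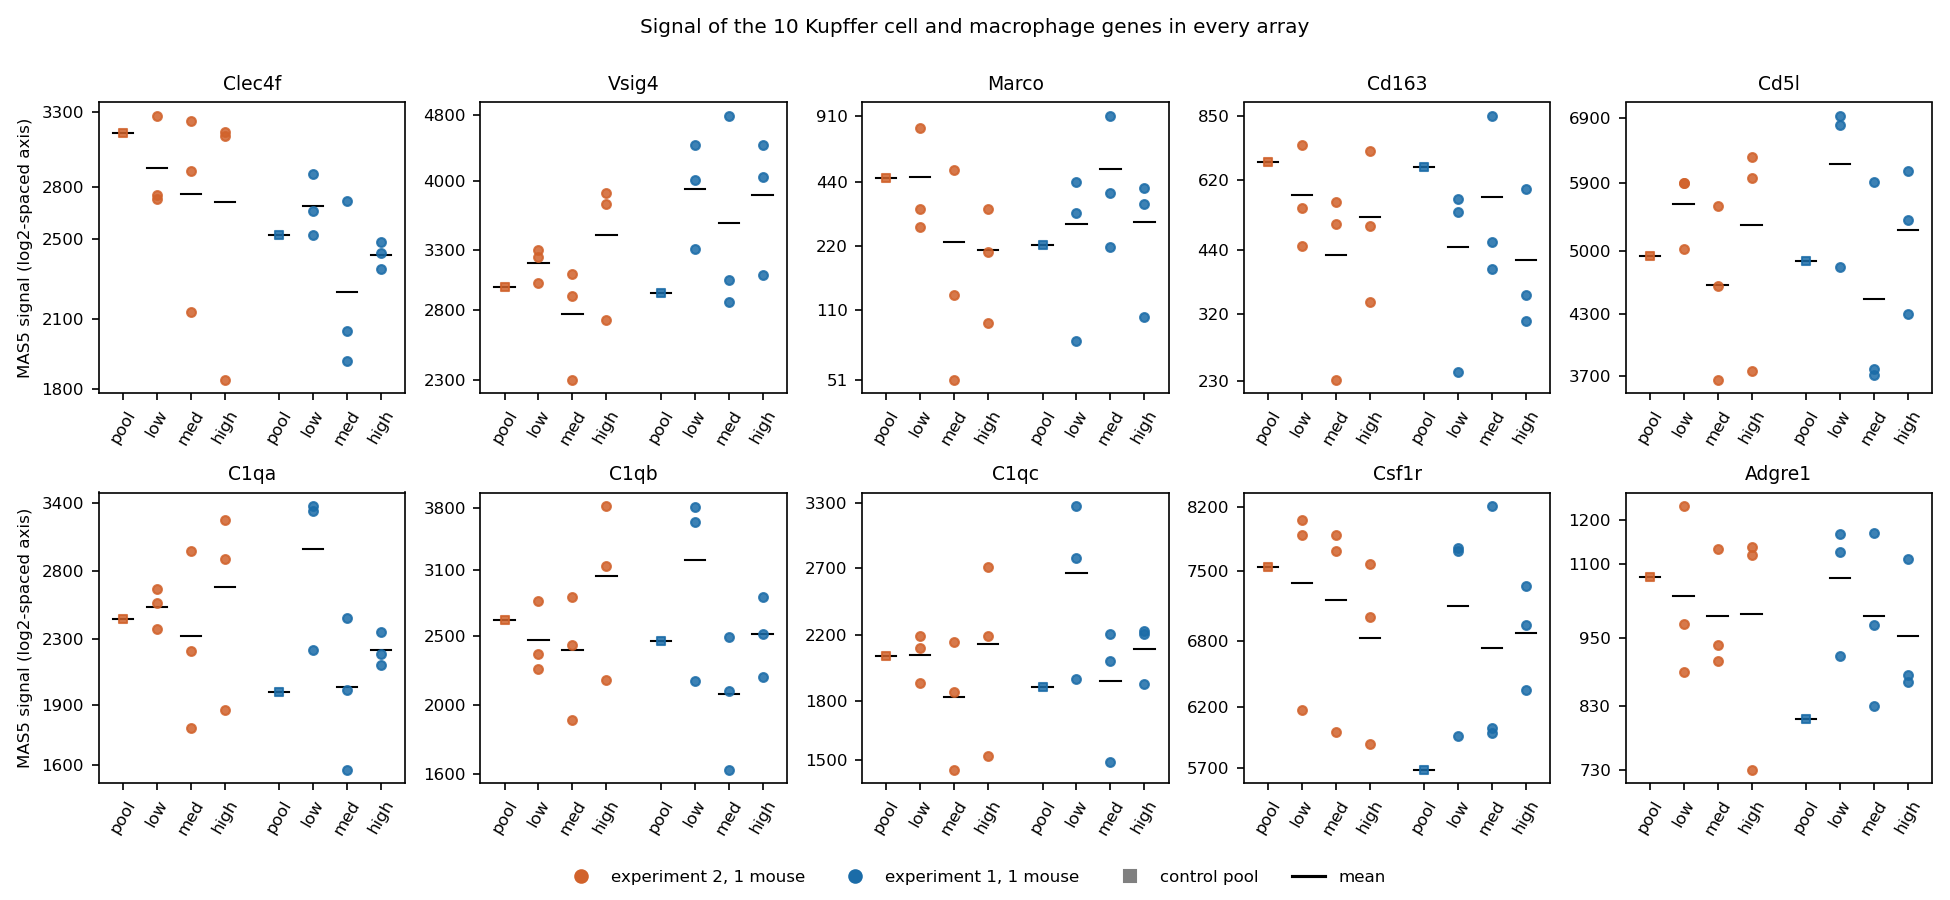
Signal intensity (log2-spaced vertical axes, each with its own range) of the 10 genes on every array: squares are control pools, circles single mice of the 3 dose-rates, low to high, and bars group means, with experiment 2 on the left of each panel and experiment 1 on the right. Dose levels overlap for every gene in at least 1 experiment, and Marco spans 17.71-fold, against 1.44-fold for Csf1r.

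Against unirradiated control, none of the 10 genes was called at any dose-rate. The count was 0 of 10 for low against control, where 1 of 11216 genes was called (0.00892%), 0 of 10 for medium against control (3 genes, 0.0267%) and 0 of 10 for high against control (6 genes, 0.0535%), at an adjusted p under 0.05. None of the 10 had an unadjusted p under 0.05 in any of these contrasts. At so few calls among all genes, a count of 0 says little about the 10. The median log2 difference of the 10 was 0.15 at the low, -0.12 at the medium and 0.07 at the high dose-rate, against 0, 0.006 and 0.002 over all genes tested. Signs at the high dose-rate depended on the scaling: 7 of 10 were higher as scaled by the authors, and 2 of 10 with arrays centred on their median, which moved the median of all genes to -0.10. The contrasts with control rest on 1 pool per experiment, and no mouse-to-mouse spread of controls enters them. Without the pool of experiment 2 the medians were 0.34, 0.05 and 0.18 (low, medium and high), and without that of experiment 1 they were 0.02, -0.20 and -0.08. Leaving out medium mouse 3 of experiment 2 gave -0.01 at the medium dose-rate, and leaving out high mouse 2 of experiment 2 gave 0.01 at the high dose-rate.

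The pools of the 2 experiments placed the mice differently. In experiment 2, 4 of 10 genes were higher in low mice than in the pool (median log2 difference -0.05), 0 of 10 in medium mice (-0.14) and 5 of 10 in high mice (-0.06). In experiment 1, 9 of 10 were higher in low mice (median 0.33), 5 of 10 in medium mice (0.001) and 8 of 10 in high mice (0.15). With arrays centred on their median the counts of higher genes became 2, 0 and 2 of 10 in low, medium and high mice of experiment 2 and 7, 4 and 6 of 10 in those of experiment 1. None of the 10 was called in any of the 6 contrasts, in which the share of all genes called was 0.00892%, 0.0178% and 0.00892% for low, medium and high mice of experiment 2 and 0.0981%, 0.125% and 0.107% for those of experiment 1, and none in the test of the difference between the experiments (0.00892% of genes for high against control, 0% for the others). All mice of an experiment were set against the same single pool, so its own error enters every one of these values.

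A rule that needs no model gave the same count. None of the 10 genes was at least 1.5-fold from the pool of its own experiment in the same direction in all 6 mice of a level, at the low (0.178% of all genes), the medium (0.357%) and the high dose-rate (0.437%).

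**Figure D2:**
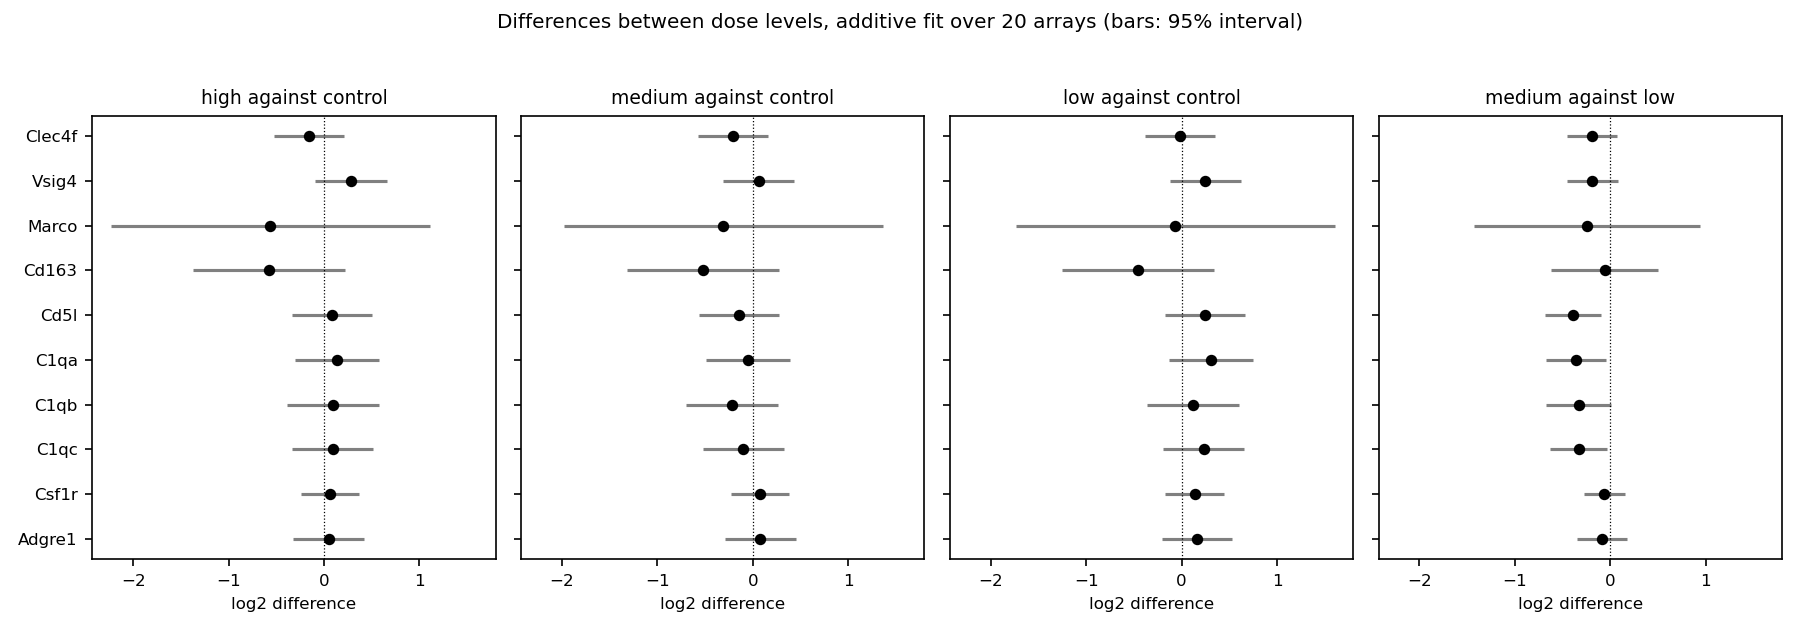
Log2 differences (horizontal axes) of the 10 genes between dose levels in the fit over 20 arrays: points are estimates and bars 95% intervals. Every interval against control spans 0, and in the panel for medium against low all 10 points lie left of 0.

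Between dose-rates, which can be compared without the pools, all 10 genes had lower fitted levels in medium than in low mice, though none passed the test. The sign was negative for 10 of 10 genes, with a median log2 difference of -0.22, while 5456 of 11216 genes were lower and the median of all genes was 0.006. Most of the 10 varied together from mouse to mouse, as described further on. Their signs, here and in the other contrasts, are therefore not separate observations, and a few mice can set them all. None of the 10 was called, and 0 of 11216 genes were (0%, with 889 genes at an unadjusted p under 0.05). Of the chosen probe sets, that of Cd5l had the smallest p: its mean was 4615 ± 953 (SD, n = 3) in medium and 5610 ± 505 in low mice of experiment 2, and 4461 ± 1255 in medium and 6179 ± 1179 in low mice of experiment 1. The log2 difference was -0.39 ± 0.14 (interval -0.69 to -0.10, unadjusted p = 0.012 and limma adjusted p = 0.502). For Cd5l, 6 of 6 medium mice lay below the mean of the low mice of their experiment, and the counts that follow are against that mean too. The C1q chains followed, C1qa with -0.36 ± 0.15 (adjusted p = 0.583), C1qc with -0.33 ± 0.14 (adjusted p = 0.588) and C1qb with -0.33 ± 0.16 (adjusted p = 0.643), each lower in 5 of 6 mice. The remaining probe sets of C1qb differed by less, 1434366_x_at by -0.14 ± 0.14 and 1437726_x_at by -0.15 ± 0.17, each lower in 3 of 6 mice. The chosen probe set of Csf1r differed by -0.06 ± 0.10, whereas its probe set 1423593_a_at differed by -0.37 ± 0.12 (unadjusted p = 0.00702, limma adjusted p = 0.452), lower in 6 of 6 mice, and 1419873_s_at by -0.27 ± 0.15 (adjusted p = 0.693).

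Within the experiments, the difference between medium and low was not of 1 size. In experiment 2, 10 of 10 genes were lower with a median of -0.18, led by Marco (-1.40 ± 0.76), Cd163 (-0.48 ± 0.39) and Cd5l (-0.30 ± 0.22). In experiment 1, 8 of 10 were lower with a median of -0.23, led by C1qb (-0.61 ± 0.23), C1qa (-0.57 ± 0.21) and Cd5l (-0.49 ± 0.22), while Marco (0.91 ± 0.76) and Cd163 (0.36 ± 0.39) had the opposite sign. The test of the difference between experiments gave -2.31 ± 1.08 for Marco, with an unadjusted p of 0.0453 and a limma adjusted p of 0.569. No gene of the 10 and none of all 11216 passed it (0%), and none of the 10 passed within experiment 2 (0.0178% of all genes) or experiment 1 (0%). Leaving out medium mouse 3 of experiment 2 brought the median over both experiments to -0.13, with 8 of 10 lower, and leaving out medium mouse 3 of experiment 1 brought it to -0.33. Without low mouse 1 of experiment 1, the mouse with the high Lcn2 signal, all 10 stayed lower with a median of -0.17. Within experiment 1 the count of the 10 at an unadjusted p under 0.05, which was 4, became 0 without low mouse 1 and 0 without low mouse 3, with medians of -0.19 and -0.18 (alternatives chosen after the data were seen). Without low mouse 2 that count stayed at 4, with a median of -0.29. Hepatocyte genes had the opposite sign in medium against low, with 12 of 14 higher and a median of 0.10, but this became 7 of 14 and 0 under quantile normalization, and their part in the result was not tested. The 14 hepatocyte genes summed to signals of 576130 to 642200 in medium and 564800 to 588290 in low mice of experiment 2, and of 561620 to 594870 in medium and 498300 to 541920 in low mice of experiment 1.

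The fitted level of high mice lay between those of medium and low mice for 5 of the 10 genes, Clec4f, Cd5l and the C1q chains. High against low was negative for 9 of 10 genes with a median of -0.13, and 0 of 10 were called (0% of all genes, with 1127 at an unadjusted p under 0.05). The median was -0.03 without high mouse 3 of experiment 2 (8 of 10 lower) and -0.21 without high mouse 2 of experiment 2. It was -0.09 without low mouse 1 or low mouse 3 of experiment 1 and -0.15 without low mouse 2 of experiment 1. Csf1r probe set 1423593_a_at differed by -0.29 ± 0.12 (unadjusted p = 0.0277, limma adjusted p = 0.426). For it, 6 of 6 high mice lay below the mean of the low mice of their experiment. The mice still overlapped in experiment 1, where high mouse 1 had a signal of 1064 and low mouse 2 one of 855. In experiment 2 only 6 of the 10 were lower, against 9 in experiment 1, and the largest single values were -1.12 ± 0.76 for Marco in experiment 2 and -0.39 ± 0.21 for C1qa in experiment 1. High against medium was positive for 6 of 10 genes with a median of 0.12, among them C1qb (0.31 ± 0.16), Cd5l (0.23 ± 0.14) and Vsig4 (0.22 ± 0.13), and negative for Marco (-0.25 ± 0.57), Cd163 (-0.06 ± 0.27), Adgre1 (-0.03 ± 0.13) and Csf1r (-0.01 ± 0.10), each with a limma adjusted p of 0.999, and 0 of 10 genes passed (0% of all genes, with 431 at an unadjusted p under 0.05). In no pair of dose-rates did a gene of the 10 keep its 3 mice of 1 level apart from the 3 of the other in the same direction in both experiments. Among all genes this held for 1.24% in high against low, 0.909% in medium against low and 0.392% in high against medium. No order of dose-rates stood out from the spread between mice for any of the 10.

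The spread between mice of 1 group was itself unequal among the genes. The residual SD of the log2 signal was 1.13 for Marco and 0.56 for Cd163, higher than in 99.6% and 89.6% of all genes tested. It lay between 0.26 and 0.32 for Clec4f, Vsig4, Cd5l and the C1q chains, and was 0.24 for Adgre1 and 0.21 for Csf1r, against a median of 0.24 over all genes. Set against the 1000 genes nearest in mean log2 signal each of the 10 was more variable than most: the share of those genes with a smaller or equal SD was 76.5% for Csf1r, 79.7% for Adgre1, 86.2% for Vsig4, 87% for Clec4f, 92.3% to 94.3% for Cd5l and the C1q chains, 98.2% for Cd163 and 99.9% for Marco. Over the 20 arrays the highest signal was 17.71 times the lowest for Marco, 3.67 times for Cd163 and 2.36 times for C1qb, while it was 1.44 times for Csf1r. The second Marco probe set, 1458297_s_at, ran from 8.8 in medium mouse 2 of experiment 2 to 567 in medium mouse 1 of experiment 1, and correlated with the first across the 18 mice (r = 0.822 after removal of group means). Medium mouse 1 of experiment 1 was the highest array for both Marco probe sets.

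The lowest Marco and Cd163 signals came from the same mice. The 4 arrays with the lowest Marco signals were medium mouse 3 and high mouse 3 of experiment 2 (51.3 and 94.7) and low mouse 3 and high mouse 3 of experiment 1 (78.5 and 101). The same 4 were the 4 lowest for Cd163, with signals of 232 and 340.3 in experiment 2 and 242 and 310 in experiment 1. In experiment 2 these mice were also low for the remaining genes: medium mouse 3 was the lowest array for Cd5l, Vsig4 and C1qc, and high mouse 3 the lowest for Clec4f and Adgre1. In experiment 1, low mouse 3 stood near the top for other genes, with the highest C1qa and C1qc signals of all 20 arrays and the second highest of C1qb and Cd5l. A mouse could therefore be low for Marco and Cd163 and high for the C1q chains.

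Seen over all 10 genes, 3 mice lay below the mean of their group for each gene and 4 lay above it for each gene. Those below were high mouse 3 and medium mouse 3 of experiment 2 and medium mouse 2 of experiment 1. Those above were medium mouse 1, high mouse 1 and high mouse 2 of experiment 2 and low mouse 1 of experiment 1. Deviations within a group of 3 add up to 0, so a group with 1 mouse far below has the others above.

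**Figure D3:**
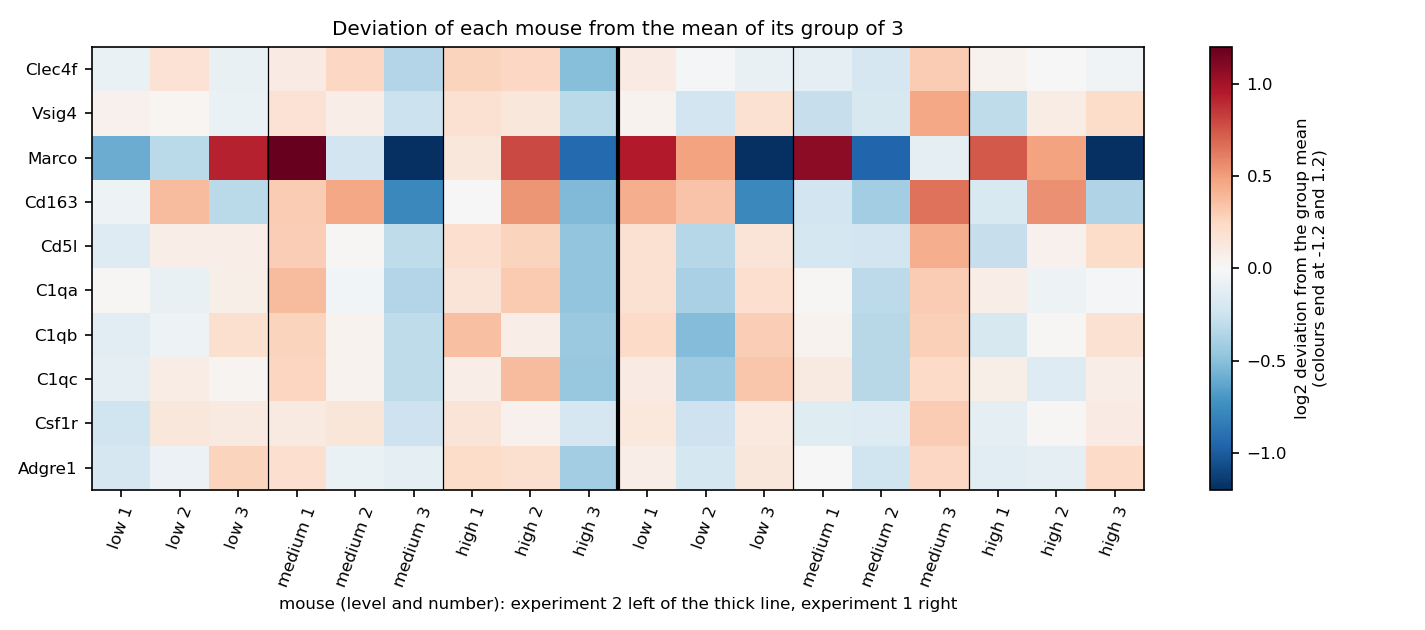
Deviation of each mouse (columns) from the mean of its group on the log2 scale for the 10 genes (rows), red above and blue below, with colours ending at -1.2 and 1.2. Columns of 1 colour throughout, such as high 3 and medium 3 left of the thick line (experiment 2), are mice in which all 10 genes lay on the same side, and the row of Marco carries the strongest colours.

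Across mice, 8 of the genes varied together. Deviations from the group mean were correlated over the 18 irradiated mice for all 45 pairs of genes, with exact two-sided permutation tests over the 46656 orders of mice within groups and Benjamini-Hochberg adjustment over the 45 pairs. All 45 values of Pearson's r were above 0, with a median of 0.711, and 24 pairs passed at an adjusted p under 0.05 (19 with Spearman's rho). Among the 28 pairs of the 8 genes other than Marco and Cd163, r ran from 0.601 to 0.932 with a median of 0.797, and 23 passed. Every one of these pairs that did not pass held Clec4f, with Vsig4 (adjusted p = 0.053), C1qa (0.0584), C1qb (0.0715), C1qc (0.0584) or Adgre1 (0.0991). The plan was for all 45 pairs and did not set these 8 apart. Marco and Cd163, left out of the 8, had a median r of 0.296 and 0.431 with them in these same correlations. The higher values of the 28 pairs follow in part from that choice. Within experiment 2 the median of these pairs was 0.834 and within experiment 1 it was 0.81, and without the 2 mice farthest from the median of the first gene the lowest r was 0.389. Without low mouse 1 of experiment 1 these pairs ran from 0.595 to 0.935 with a median of 0.801.

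The C1q chains were among the closest. C1qa and C1qc had r = 0.932 and rho = 0.847 (exact permutation p = 0.000472 and 0.00317, adjusted 0.00422 and 0.0159), C1qa and C1qb r = 0.873, and C1qb and C1qc r = 0.849. Cd5l and Vsig4 had r = 0.922 and rho = 0.87 (exact permutation p = 0.00171 and 0.00103, adjusted 0.00772 and 0.00926). For C1qb and Adgre1, r was 0.894 and rho 0.882, and the exact permutation p of both, 2.14e-05, is the smallest that the design allows (adjusted 0.000965). These genes do not lie next to each other, since Adgre1 is on chromosome 17 and the C1q genes are on chromosome 4. All genes of a mouse share 1 array and its scaling, and over the 11206 other genes tested the median r with the mean deviation of the 10 was 0.004.

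Marco and Cd163 followed the rest less closely and not alike in the experiments. Marco had r between 0.001 (Vsig4) and 0.487 (C1qa) with the 8 genes, and 0 of 8 pairs passed. Within experiment 2 these values lay between 0.552 and 0.881, whereas within experiment 1 they lay between -0.461 and 0.309, and the difference between the experiments was not tested. Cd163 had a median r of 0.431 with the 8 genes, and 1 pair passed, that with Clec4f (r = 0.777, rho = 0.829, exact permutation p = 0.000643 and 0.000707, adjusted 0.00422 and 0.00796). Between Marco and Cd163, r was 0.578 and rho 0.513 (exact permutation p = 0.0579 and 0.088, adjusted 0.0898 and 0.147), with 0.56 in experiment 2 and 0.597 in experiment 1. The relation of these 2 receptors to each other had the same sign in both experiments, but did not pass the test.

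**Figure D4:**
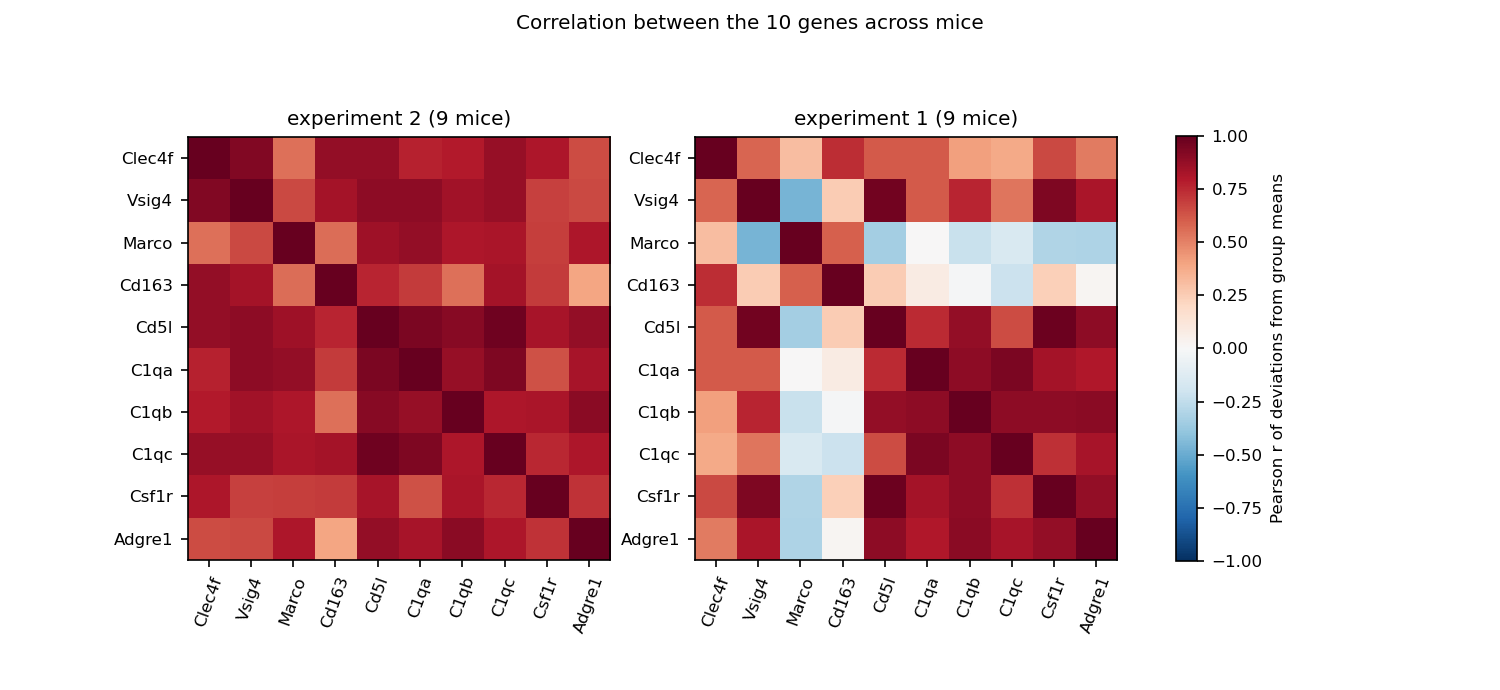
Pearson's r between the 10 genes over the deviations of 9 mice from their group means, in experiment 2 (left) and experiment 1 (right), red above 0 and blue below. All pairs are red in experiment 2, and in experiment 1 Marco and Cd163 are pale or blue against the C1q chains while those chains stay dark red with each other.

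The genes most like the 10 were found by their correlation with the mean standardised deviation of the 10 over the 18 mice, as a description with no test. The closest of the genes outside the list were Cfp (properdin, a plasma protein of the alternative complement pathway, r = 0.872), Laptm5 (a lysosomal membrane protein, 0.862), Nupr1 (0.86), Adamdec1 (0.849), Fcer1g (the shared chain of Fc receptors, 0.838), Dennd6b (0.825), Cd68 (a lysosomal glycoprotein of macrophages, 0.816) and Aif1 (0.815). Among pan-macrophage and monocyte genes 22 of 38 had r above 0.5, and among other Kupffer cell markers 12 of 28. It was above 0.5 for 2 of 16 ligands and signalling partners of Csf1r, 3 of 15 lipid-associated macrophage genes and 3 of 16 complement proteins and receptor partners. The same held for 2 of 19 genes of sinusoidal endothelium, 1 of 16 of stellate cells, 2 of 14 of hepatocytes and 3.95% of all genes. Blood cell lists were short and uneven, with 2 of 4 genes of T and NK cells, 2 of 5 of neutrophils and 2 of 8 of B and plasma cells, against 0 of 6 of dendritic cells and 0 of 4 of erythroid cells. The 10 themselves ranged from 0.95 (Cd5l) to 0.606 (Cd163) and 0.478 (Marco), but each is part of the mean it was set against.

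Wider lists of macrophage genes were counted beside the 10, and no gene of any list was called between dose levels. Of 38 pan-macrophage and monocyte genes, 30 were higher at the high dose-rate than in control as scaled by the authors, with a median log2 difference of 0.24, and 24 were with arrays centred on their median. The low dose-rate had 31 of 38 higher (median 0.26) and the medium 25 of 38 (0.14), so the sign was shared by all 3 levels against the same pools. High against low was -0.02 with 18 of 38 higher, and depended on single low mice of experiment 1. It became 0.07 (26 of 38 higher) without mouse 1, -0.09 (11) without mouse 2 and 0.08 (26) without mouse 3. Low against control then had 24, 33 and 27 of 38 higher, with medians of 0.15, 0.35 and 0.185. For high against control the median was 0.04 in experiment 2 and 0.46 in experiment 1. The smallest p of that list belonged to Coro1a, an actin-binding protein of leukocytes (0.83 ± 0.33, limma adjusted p = 0.593), Mpeg1, a pore-forming protein of macrophages (0.63 ± 0.28, 0.639), and Plac8 (0.58 ± 0.27, 0.672). In medium against low mice, 32 of the 38 were lower with a median of -0.14 (31 of 38 under quantile normalization and with centred arrays). By experiment the median was 0.07 in experiment 2 and -0.41 in experiment 1, so the sign was not shared. Without low mouse 1 or low mouse 3 of experiment 1, 28 and 23 of the 38 were lower, each with a median of -0.07. Without low mouse 2 of experiment 1, 34 were lower, with a median of -0.225.

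Other Kupffer cell markers gave 18 of 28 genes higher at the high dose-rate than in control, with a median of 0.08, which became 13 of 28 with centred arrays. At the low dose-rate 20 of 28 were higher (median 0.19) and at the medium 13 of 28 (-0.05). The transcription factor Spic, which red pulp and bone marrow macrophages need to handle iron from red cells, had a difference of 1.40 ± 0.64 (limma adjusted p = 0.668), but the control pool of experiment 2 read 9.5 against 94.9 in the pool of experiment 1. Fcna, a ficolin of the lectin pathway, differed by -0.36 ± 0.17 (adjusted p = 0.693), lower in 6 of 6 mice, and C6 by -0.95 ± 0.49 (adjusted p = 0.723). In medium against low mice 24 of 28 were lower, with a median of -0.19 and the same count under both other scalings. The median was -0.23 in experiment 2 and -0.22 in experiment 1.

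The ligands and signalling partners of Csf1r, 16 genes tested, had medians of 0.15, 0.10 and 0.03 for low, medium and high against control. Cebpb, a transcription factor of myeloid cells and hepatocytes, differed by -0.49 ± 0.18 (limma adjusted p = 0.53), Il34, a ligand of Csf1r, by 0.57 ± 0.37 (adjusted p = 0.787) and Irf8, which directs monocyte development, by 0.37 ± 0.27 (adjusted p = 0.8). Complement proteins and receptor partners, 16 genes, had medians of 0.01, 0.06 and 0.03 at these levels, with, for high against control, Cd93, a surface glycoprotein of endothelium and myeloid cells, at 0.63 ± 0.19 (adjusted p = 0.366), higher in 6 of 6 mice. C2 differed by -0.27 ± 0.14 and Cfb by -0.18 ± 0.11, both lower in 6 of 6 mice (adjusted p = 0.73 and 0.766). Lipid-associated macrophage genes, 15 tested, had medians of 0.07, 0.15 and 0.21, led at the high dose-rate by Abca1, the cholesterol exporter (0.32 ± 0.13, adjusted p = 0.612), Ctsl (0.21 ± 0.11, 0.735) and Lpl (0.50 ± 0.29, 0.75). None of these lists had a called gene in the 3 contrasts with control or between dose-rates.

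Markers of other cell types were counted in the same way. None was called in the contrasts with control or between dose-rates over both experiments, among 19 genes of sinusoidal endothelium, 16 of stellate cells, 14 of hepatocytes, 4 of bile duct cells, 5 of neutrophils, 4 of T and NK cells, 8 of B and plasma cells, 6 of dendritic cells, 4 of erythroid cells and 4 of pancreatic acinar cells. In medium against low mice, sinusoidal endothelium had 13 of 19 lower with a median of -0.05, stellate cells 8 of 16 with 0.02, T and NK cells 4 of 4 with -0.33, B and plasma cells 3 of 8 with 0.05, and neutrophils 4 of 5 with -0.27. Without low mouse 1 of experiment 1 neutrophils had 1 of 5 lower with a median of 0.25. In experiment 1 alone, 1 of 4 acinar genes, Cela3b, a pancreatic elastase, was called higher than the pool at each dose-rate. Its signal was 7.9 in that pool, against means of 135 in the low, 148 in the medium and 140.5 in the high mice, while in experiment 2 the pool read 156. The part of these cell types in the values of the 10 genes was not tested.

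The 2 experiments, which differed in duration and dose-rate, were set against each other at equal dose level. Anything else that differed between them, such as how intact the RNA was (described below), goes with experiment. These differences cannot be told apart. Among all genes 4761 of 11216 were called (42.4%), but 0 of the 10 were. Vsig4 averaged 3134 ± 486 in experiment 2 and 3778 ± 716 in experiment 1 (SD, n = 9 each), with a log2 difference of -0.23 ± 0.10 (limma adjusted p = 0.0636). Clec4f averaged 2794 ± 505 in experiment 2 and 2443 ± 309.9 in experiment 1, with 0.19 ± 0.10 (adjusted p = 0.113). Both lay close to the threshold, and the call changed when 1 array was left out: Vsig4 had an adjusted p of 0.0267 without high mouse 1 of experiment 1, and Clec4f one of 0.012 without high mouse 3 of experiment 2. For the other 8 the difference lay between -0.18 (Marco) and 0.09 (C1qa).

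Probe sets of C1qb and Csf1r disagreed about that comparison. C1qb probe set 1434366_x_at had signals of 822 in the control pool, 745, 865 and 838 in the low, 859, 697 and 902 in the medium and 995, 1055 and 762 in the high mice of experiment 2, against 1599, 2248, 1348 and 1624, 1702, 1080.2 and 1487 and 1650.3, 1218 and 1203 in the same groups of experiment 1. All arrays of experiment 2 lay below all arrays of experiment 1, while those of 1417063_at, the probe set used for C1qb above, overlapped throughout. Signals of 1437726_x_at were 1259 in the control pool, 1270.3, 1471 and 1300 in the low, 1564, 1169 and 1082 in the medium and 1669, 1884 and 1249 in the high mice of experiment 2, against 2594, 3506, 1671 and 2892, 2654, 1555 and 2646 and 2289.8, 1959.6 and 2023 in the same groups of experiment 1. In a fit of all probe sets, 1434366_x_at differed by -0.80 ± 0.11 and 1437726_x_at by -0.75 ± 0.13 (log2 difference ± SE, limma adjusted p = 5.25e-06 and 9.66e-05), against 0.05 ± 0.13 for 1417063_at. Of the 15 probe sets 4 were called in that fit, these 2 of C1qb and the 2 of Csf1r described next, while 42.5% of all 19527 probe sets were, 19% lower and 23.5% higher in experiment 2.

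Csf1r differed in the other direction. Probe set 1423593_a_at had signals of 1412 in the control pool, 1441, 1739 and 1795 in the low, 1545, 1158 and 1178 in the medium and 1337, 1407 and 1059.9 in the high mice of experiment 2, against 1043, 1403, 855 and 1009.9, 988, 741 and 754 and 1064, 786 and 961 in the same groups of experiment 1. The low mice and the medium mice of experiment 2 all lay above the mice of the same level in experiment 1, and the high mice overlapped. Signals of 1419873_s_at were 2355 in the control pool, 1827, 2567 and 1912 in the low, 2655, 1770 and 1479.5 in the medium and 2195, 2323 and 1574 in the high mice of experiment 2, against 1176, 2238, 1566 and 1754, 1279, 1272 and 1589.7 and 1626, 1085 and 1437 in the same groups of experiment 1. The log2 differences were 0.55 ± 0.10 and 0.46 ± 0.12 (limma adjusted p = 8.4e-05 and 0.00357), against 0.08 ± 0.08 for 1419872_at.

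Whether 2 probe sets of 1 gene changed unequally was tested on their log2 ratio within each mouse, with experiment labels permuted exactly within dose level (18 mice, 8000 relabellings, two-sided, 5 ratios, a test added after these values had been seen). The ratio to the chosen probe set differed by -0.83 and -0.76 for the C1qb pair, each with an exact permutation p of 0.00025, the smallest that the design allows (adjusted 0.000625). For Csf1r it differed by 0.52 with 1423593_a_at and 0.36 with 1419873_s_at (exact permutation p = 0.001 and 0.00475, adjusted 0.00167 and 0.00594), and for Marco by -0.58 (p = 0.0658, adjusted 0.0658). The ratio of the 3′ to the 5′ control probe set of Gapdh, which reflects how intact the RNA was, lay between 0.871 and 0.993 in experiment 2 and between 0.69 and 0.769 in experiment 1, and that of beta-actin lay between 2.25 and 2.61 in experiment 2 and between 1.85 and 2.15 in experiment 1. Its part in these ratios was not tested. A level of C1qb or Csf1r set between the experiments therefore depends on the probe set, and none of their 6 probe sets was called in any contrast between dose levels.

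**Figure D5:**
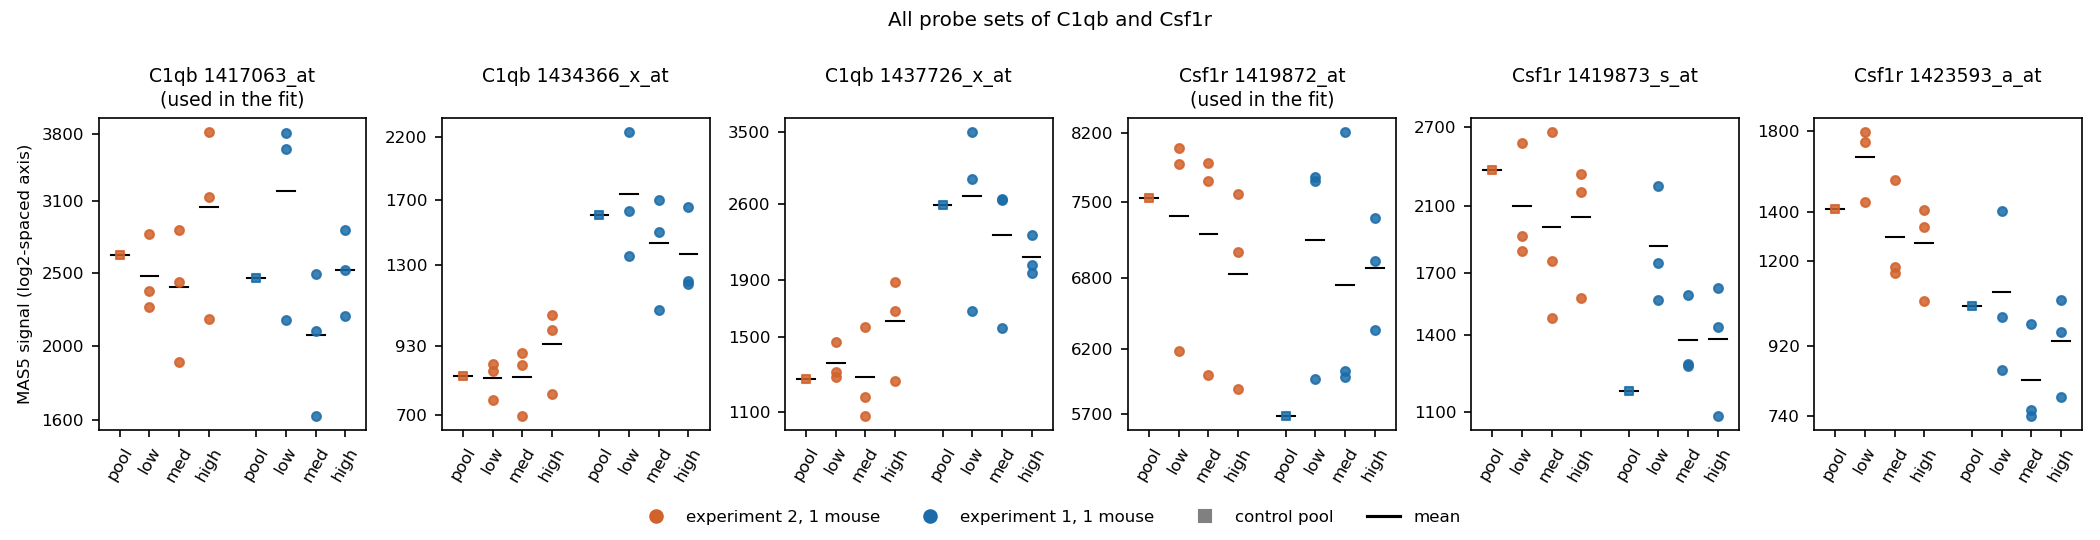
Signal intensity (log2-spaced vertical axes, each with its own range) of the 3 probe sets of C1qb and the 3 of Csf1r on every array, with experiment 2 left and experiment 1 right in each panel, squares for control pools, circles for mice and bars for means. The experiments overlap for the 2 probe sets used in the fit, lie apart for C1qb 1434366_x_at, and are shifted upward in experiment 2 for the other 2 of Csf1r.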

How the data were processed

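The authors deposited 1 table of signal intensities, made with MAS5 per the submitters' processing notes (version: not given in the sources used here), with 45101 probe sets on 20 arrays and a 2% trimmed mean of 500.0 on each. All columns were matched to a sample, and no detection calls were used. Symbols came from the platform annotation (34945 probe sets with 1 symbol, 932 with several, 9160 with none). Signals were transformed to log2(signal + 7.12), the pseudocount being the 10th percentile of all signals, which understates changes of low genes. Probe sets with a mean log2 signal at or above the median were kept (22519), and 1 probe set stood for each gene, those without an _s_at or _x_at suffix first and then the highest mean, which left 11216 genes. Dose level and experiment were fitted with limma 3.58.1 in R 4.3.3 (lmFit, eBayes with a variance trend, 15 residual degrees of freedom), a call being a Benjamini-Hochberg adjusted p under 0.05 over all genes. Contrasts within an experiment and differences between experiments came from a fit of 8 groups (12 residual degrees of freedom), in which the spread of a pool is taken from the irradiated mice. P-values measure the spread between these arrays only, whose number limits the precision.

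Named are all 10 genes with each probe set, of each other macrophage list the 3 genes with the smallest p for high against control, the 8 genes most like the 10, and at most 2 genes for each list of another cell type. Neutrophils are the exception, since all their genes tested are named, a choice made after the values were seen. The 10 genes and the 15 lists beside them (284 symbols) were chosen with earlier results of these data known. Promoter windows and loci are RefSeq's (GRCm38.p6). Tested on simulated data with 100 genes each changed 2-fold and 4-fold, the fit of high against control recovered 71 and 95 with 12 false calls, and medium against low 83 and 98 with 5. Same-numbered mice were not paired by the data (correlations of deviations -0.15 to 0.30).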

Additional observations from a re-analysis of the deposited data

How the results depend on the processing

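Each comparison was repeated with 2 other pseudocounts, no filter or a stricter one, all probe sets or their mean per gene, quantile normalization, arrays centred on the median, no variance trend, pools weighted by mice, only the levels compared, a replicate block and each array left out. Of 403 counts of called genes among the 10, 395 were as reported, and every count between dose levels, or of differences between experiments, stayed at 0. With the replicate block, 0 of the 10 genes were called in each pair of dose-rates, and Cd5l in medium against low stayed at -0.39 (limma adjusted p = 0.348). The 8 counts that moved were for experiment 2 against experiment 1: 2 genes were called with all probe sets (C1qb and Csf1r), 2 with the mean over the probe sets (C1qb reversed to -0.50, adjusted p = 0.00138, and Csf1r at 0.37, adjusted p = 0.00171), 1 with pools weighted by mice (Clec4f at 0.22, adjusted p = 0.0387), and 0 to 1 with an array left out. Vsig4 was the gene called without low mouse 2, medium mouse 1 or high mouse 1 of experiment 1 or high mouse 1 of experiment 2 (-0.28 to -0.26, adjusted p = 0.0267 to 0.0483), and Clec4f without high mouse 3 of experiment 2 (0.26, adjusted p = 0.012). The cause was not tested. Of 2200 single differences, 80 changed sign without being called. Counts over all genes ranged from 1 to 186 for high against control, 1 to 110 for medium against control, 0 to 17 for low against control, 0 to 17 for high against low and 0 to 1 for medium against low. Differences between experiments of contrasts with control could not be computed without a pool. Low signal limits Marco, whose 2 probe sets lay under the array median on 2 and 6 arrays.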
